A study of Mus musculus with 9 samples.

Results

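The Fbxw genes Fbxw13, Fbxw14, Fbxw15, Fbxw16, Fbxw18, Fbxw19, Fbxw20, Fbxw22, Fbxw24 and Fbxw28 form a tandem group of F-box genes known for their transcripts in mouse oocytes. They were listed by name with earlier results of these data known, and all 10 were present among the 24454 genes of the count table. Their counts beside the shares of all genes are therefore description, not a test. RNA was sequenced from ICR mouse embryos cultured in vitro from zygotes to the 2-cell stage, in 9 libraries of 3 embryos each. The 3 groups of 3 libraries were controls, embryos under a high glucose load, and embryos under the same load that also received rat serum. The labels name that serum ZGW, and the sample titles call the groups control, model and drug group, in this order. Whether the first 2 groups received any rat serum is not stated, so rat serum itself and the drug treatment cannot be told apart. No sex, mating or parental age is used here. The labels call the replicates biological but name no matings, so each p-value rests on the spread between pools of embryos.

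An F-box protein is the exchangeable part of an SCF ubiquitin ligase, the complex in which the cullin Cul1 joins the adaptor Skp1 to the RING protein Rbx1. The F-box holds Skp1, and the WD40 repeats of Fbxw proteins hold the substrate that is to be ubiquitinated. In the 2-cell embryo, ubiquitin ligases act while stored oocyte proteins and RNAs are being cleared and the embryo's own genome is switched on. Of the members, Fbxw15 has been described as a subunit that targets the histone acetyltransferase Kat7.

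All 10 members lie on chromosome 9 within 523 kb, at chr9:109179227-109702700 of GRCm38, the assembly that mm10 names, and all 10 are on the minus strand. GENCODE annotates 15 Fbxw genes in this cluster. Of the other 5, Fbxw21, Fbxw26 and Fbxw27 are in the count table. The annotation places 8 further genes, among them small RNAs and antisense transcripts, between the first and the last member, and 0 of them are in the count table. Each member has a transcript of 10 exons. Coding sequences of the 45 pairs of members were between 79.5% and 99.1% identical, with a median of 83.5%. Fbxw14 and Fbxw28 are the closest pair, and the next closest pair, Fbxw14 and Fbxw22, is 92.7% identical.

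**Figure D1:**
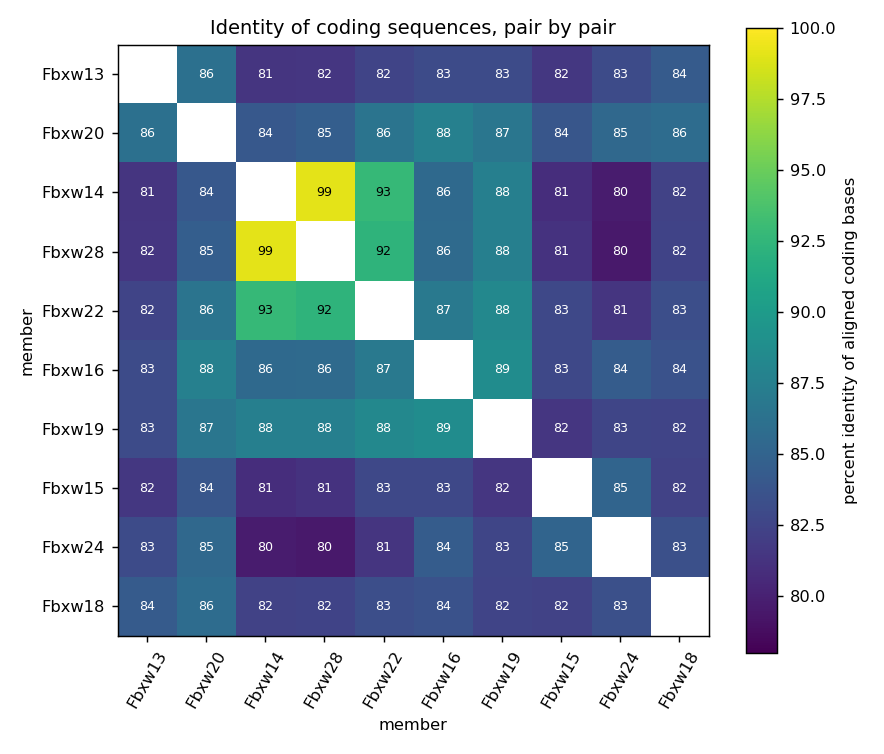
Percent identity of aligned coding bases for each pair of the 10 members, in chromosomal order on both axes. Fbxw14 and Fbxw28 stand apart at 99.1%, and the lowest pair is at 79.5%.

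The likeness extends into the sequence before the genes. The RefSeq promoter table (GRCm38.p6) matched 8 of the 10 members. Over the 250 bases before the annotated start, their 28 pairs were between 84.7% and 97.3% identical, with a median of 90.4%. The upstream sequences of 5 members are shown, read 5′ to 3′ on the minus strand, because the first 3 belong to members with large differences between the treated groups and the last 2 to members with smaller ones. Capitals mark the letters CAGCTG and TTTAAAA.

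Fbxw28, chr9:109339660-109339909: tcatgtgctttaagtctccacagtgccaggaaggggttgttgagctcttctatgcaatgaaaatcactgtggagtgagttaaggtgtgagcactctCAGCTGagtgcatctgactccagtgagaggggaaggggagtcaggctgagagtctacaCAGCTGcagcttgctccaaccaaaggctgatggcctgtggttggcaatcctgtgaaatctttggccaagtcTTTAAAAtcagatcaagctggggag
Fbxw24, chr9:109626060-109626309: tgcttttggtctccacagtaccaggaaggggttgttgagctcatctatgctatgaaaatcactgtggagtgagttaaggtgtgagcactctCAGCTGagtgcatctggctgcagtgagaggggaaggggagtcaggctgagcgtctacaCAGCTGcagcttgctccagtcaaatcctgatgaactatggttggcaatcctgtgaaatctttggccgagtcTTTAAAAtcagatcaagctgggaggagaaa
Fbxw15, chr9:109568263-109568512: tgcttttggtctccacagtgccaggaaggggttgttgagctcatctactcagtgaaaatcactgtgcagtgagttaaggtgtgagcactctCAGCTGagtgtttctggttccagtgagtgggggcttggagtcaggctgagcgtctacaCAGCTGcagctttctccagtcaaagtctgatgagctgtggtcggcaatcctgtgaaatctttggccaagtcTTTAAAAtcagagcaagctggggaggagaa
Fbxw18, chr9:109702701-109702950: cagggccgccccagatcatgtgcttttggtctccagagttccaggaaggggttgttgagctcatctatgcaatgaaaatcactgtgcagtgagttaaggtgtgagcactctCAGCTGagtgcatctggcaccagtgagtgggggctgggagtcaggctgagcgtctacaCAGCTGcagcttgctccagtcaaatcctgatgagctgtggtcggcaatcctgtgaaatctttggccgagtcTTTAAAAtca
Fbxw16, chr9:109449141-109449390: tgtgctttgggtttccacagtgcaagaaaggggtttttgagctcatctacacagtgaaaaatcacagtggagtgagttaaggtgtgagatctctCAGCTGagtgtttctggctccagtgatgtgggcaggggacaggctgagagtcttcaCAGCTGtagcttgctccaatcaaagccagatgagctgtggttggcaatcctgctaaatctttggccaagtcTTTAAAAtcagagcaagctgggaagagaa

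The motifs were searched on both strands, and the share of all 27025 genes in the promoter table was counted over the same 250 bases. CANNTG, the E-box core, is present in 8 of 8 members and in 66% of all genes. CAGCTG is a form of that core, present in 8 of 8 members and in 12.8% of all genes. The AT-rich TTTAAAA is present in 7 of 8 members, all but Fbxw20, and in 8% of all genes. It begins 25 to 30 bases before the annotated start in 5 members, Fbxw14, Fbxw28, Fbxw16, Fbxw15 and Fbxw24. The TATA box letters TATAAA are in 0 of 8 member windows and in 13% of all genes. The longest run of letters common to all 8 windows is aaatctttggcc, which 11 genes of the table hold in all. CAGCTG and TTTAAAA were picked after the windows had been seen, and the matches describe letters, not binding.

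Counts of near-identical genes can be split wrongly between copies, and how the authors counted reads that match several places is not given in the sources used here. In 50-base stretches of transcript, Fbxw14 shared 56.9% with Fbxw28, and Fbxw28 shared 61.5% with Fbxw14, so their separate values are uncertain. For Fbxw13, Fbxw18, Fbxw19, Fbxw20 and Fbxw24 the share held in any other gene was between 5.77% and 9.22%, and for Fbxw22 it was 10.6%. Fbxw16 shared 21.5%, of which 9.23% was with Gm42494, and Fbxw15 shared 16%, of which 7.8% was with Gm42756. Both of these are annotated on the opposite strand, and without the strand setting reads of the 2 strands cannot be told apart. No member had the same 9 counts as another gene.

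Together the members were abundant RNAs of the 2-cell embryo. Their summed level is given in CPM, each library's counts brought to a common total with TMM scaling factors. In the control libraries it was 2305, 2475 and 3680 CPM, in the high glucose libraries 4342, 4566 and 4511 CPM, and with ZGW serum 2917, 1523 and 2228 CPM. The high glucose libraries all lay above those of both other groups, and the control and ZGW serum libraries overlapped. Means were 2820 ± 749.6 CPM in control, 4473 ± 117.0 CPM under high glucose and 2222 ± 697.1 CPM with ZGW serum (SD, n = 3). As a share of all counts, the family held between 0.225% and 0.360% in control, between 0.411% and 0.476% under high glucose and between 0.169% and 0.307% with ZGW serum. In pooled embryos, fewer cells with an RNA and less RNA per cell cannot be told apart.

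**Figure D2:**
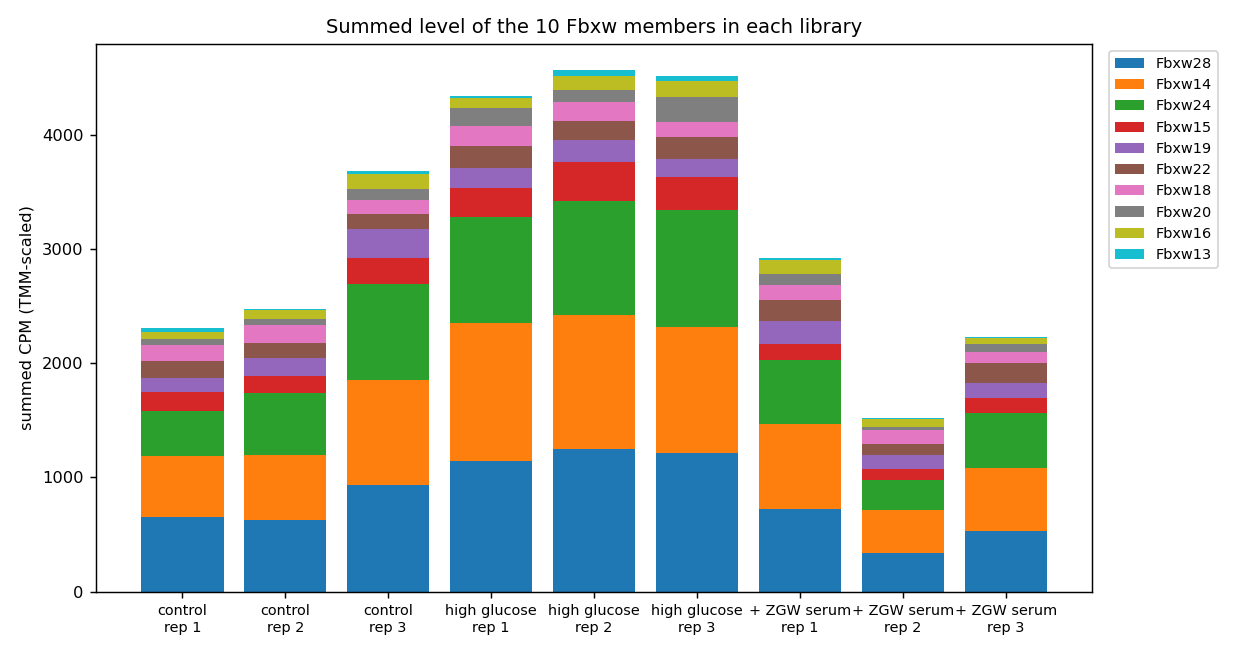
Summed TMM-scaled CPM of the 10 members in each of the 9 libraries, with 1 colour for each gene. The 3 high glucose bars reach from 4342 to 4566 CPM, and the tallest of the other bars, control replicate 3, reaches 3680 CPM.

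Fbxw14, Fbxw24 and Fbxw28 supplied most of this total: between 64.1% and 75.5% of the members' counts in every library. Without these 3 genes the sum of the other 7 was between 724.4 and 982.8 CPM in control, between 1065 and 1167 CPM under high glucose and between 546.7 and 890.4 CPM with ZGW serum. The high glucose libraries again lay above all others. Counts of a member in a library ran from 58 to 16205, and all 10 members passed the filter on low counts.

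Levels of different genes were compared per kilobase of exon, using GENCODE exon lengths, since the annotation behind the counts is not stated. In control embryos Fbxw24 had the highest level at 399.7 ± 154.0 CPM per kb (SD, n = 3). Fbxw28 followed at 378.9 ± 86.8 CPM per kb and Fbxw14 at 317.9 ± 101.3 CPM per kb. The ranges of mean and SD of these 3 overlapped. Such SDs hold variation between libraries that the genes share, so the order of genes within a library was not judged. A wide step led to Fbxw15 at 120.0 ± 24.5 CPM per kb. Fbxw18 was at 92.8 ± 14.2 CPM per kb and Fbxw22 at 73.3 ± 6.32 CPM per kb, neighbours in the order that differed by less than the SD of Fbxw18 plus that of Fbxw22. Fbxw19 was at 51.6 ± 20.0 CPM per kb and Fbxw16 at 49.7 ± 21.1 CPM per kb, again within their spread. Fbxw20 at 29.1 ± 10.7 CPM per kb and Fbxw13 at 12.4 ± 8.41 CPM per kb were lowest. The first 4 places and the last place were held by the same genes in the other groups. In the high glucose group Fbxw24 was at 661.1 ± 36.1 CPM per kb and Fbxw13 at 24.4 ± 8.21 CPM per kb, and with ZGW serum Fbxw24 was at 290.8 ± 102.2 CPM per kb and Fbxw13 at 7.30 ± 3.48 CPM per kb. Fbxw20 stood in place 9 in control and with ZGW serum and in place 7 under high glucose, where it was at 65.7 ± 21.9 CPM per kb. There it did not differ beyond the spread from Fbxw16 at 65.4 ± 16.7 CPM per kb or Fbxw19 at 51.0 ± 4.73 CPM per kb.

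The comparison of high glucose with control asks what glucose loading changed. Members were mostly higher under high glucose: the fitted log2 fold change was above 0 for 9 of 10, where 49% of all genes tested were above 0 and 51% below. Its median over members was 0.71, against -0.02 over all 16964 genes tested. The high glucose libraries did not overlap the controls, and lay above them, in 6 members, Fbxw14, Fbxw15, Fbxw20, Fbxw22, Fbxw24 and Fbxw28. The same held for 6.84% of all genes. No member lay below the controls without overlap, as 6.91% of genes did. No member passed the threshold of 0.05 on the adjusted p of edgeR's quasi-likelihood test, which called 0% of genes.

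Fbxw14 was at 534, 563 and 919 CPM in control and at 1210.0, 1173 and 1104 CPM under high glucose. Every high glucose library lay above every control library, of which replicate 3 was highest. The log2 fold change of Fbxw14 was 0.79 ± 0.30 (SE), with an edgeR adjusted p of 0.629. Its near copy Fbxw28 was at 653, 631 and 934 CPM in control and at 1144, 1248 and 1216 CPM under high glucose. The log2 fold change of Fbxw28 was 0.70 ± 0.29, with an adjusted p of 0.656. Both genes thus had the same arrangement of libraries, as did Fbxw24, which shares only 5.77% of its stretches with other genes. Fbxw24 was at 393, 547 and 844 CPM in control and at 923, 1004 and 1025 CPM under high glucose. For Fbxw24 the log2 fold change was 0.73 ± 0.34, with an adjusted p of 0.686.

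Fbxw15, the member linked to Kat7, was at 168 and 150.1 CPM in control replicates 1 and 2, at 220.3 CPM in replicate 3, and at 259, 337 and 284 CPM under high glucose. The log2 fold change of Fbxw15 was 0.71 ± 0.26, with the lowest adjusted p of the members at 0.627. Fbxw20 was at 59.6, 52.1 and 100.5 CPM in control and at 154.0, 109 and 215 CPM under high glucose. Its lowest high glucose library was close to its highest control library. At 1.17 ± 0.47, the log2 fold change of Fbxw20 was the largest in this comparison, with an adjusted p of 0.649. Fbxw22 lay in narrow ranges, from 126 to 148 CPM in control and from 162 to 192 CPM under high glucose, with a log2 fold change of 0.43 ± 0.27 and an adjusted p of 0.774.

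The other 4 members overlapped between control and high glucose. Fbxw13 was at 30.6, 5.29 and 20.4 CPM in control and at 24.2, 49.0 and 37.4 CPM under high glucose. Its control libraries lay far apart, and its log2 fold change of 0.97 ± 0.64 was 0.54 without control replicate 2 and 1.52 without control replicate 1. Fbxw16 had a log2 fold change of 0.40 ± 0.40 and Fbxw18 one of 0.16 ± 0.25. Fbxw19 had a mean of 180.0 ± 69.8 CPM in control, close to that of the high glucose libraries, 177.8 ± 16.5 CPM (SD, n = 3). Control replicate 3 was the highest control library for Fbxw14, Fbxw15, Fbxw16, Fbxw19, Fbxw20, Fbxw24 and Fbxw28.

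Without adjustment, 4 members, Fbxw14, Fbxw15, Fbxw20 and Fbxw28, had an edgeR p under 0.05 with higher levels under high glucose, where 3.88% of all genes did, and 0 had one with lower levels, where 3.5% of genes did. That count was 0 without control replicate 1, 0 without control replicate 2 and 5 without control replicate 3. It was 1 without high glucose replicate 1, 1 without high glucose replicate 2 and 2 without high glucose replicate 3, and 4 or 5 without a ZGW serum library. In these fits between 5.67% and 9.22% of all genes had such a p in either direction. Over all genes edgeR called 0, with 1253 at an unadjusted p under 0.05, limma-voom called 0 and DESeq2 called 129, none of them a member. The DESeq2 calls were 0.324% of genes higher and 0.436% lower.

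**Figure D3:**
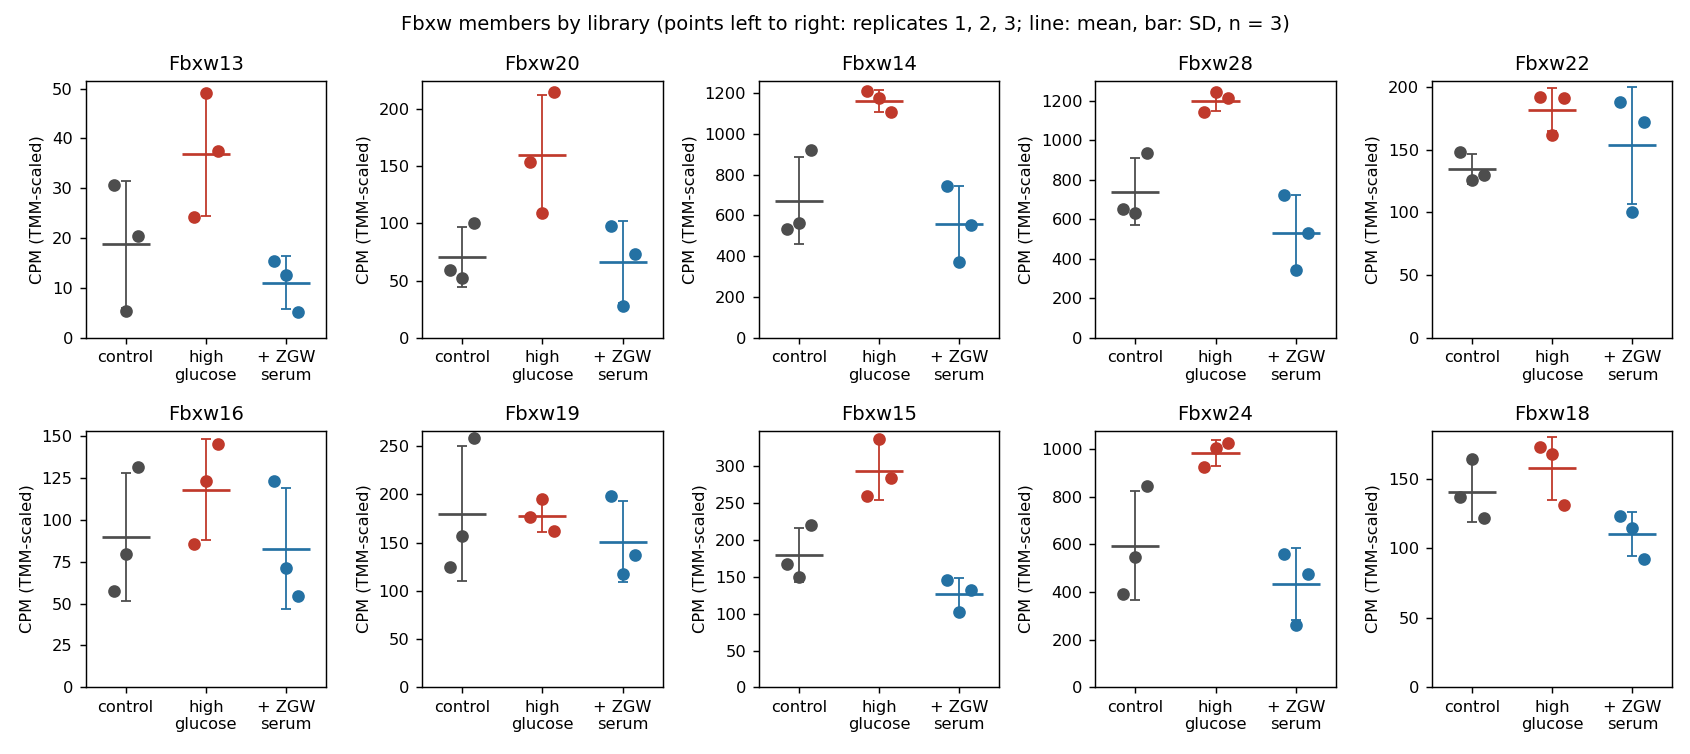
TMM-scaled CPM of each member (vertical axis, from 0) in the 3 libraries of each group, with the mean as a line and the SD as a bar. In Fbxw14, Fbxw15, Fbxw20, Fbxw24 and Fbxw28 the 3 high glucose points lie above all points of both other groups, while in Fbxw16 and Fbxw19 the groups overlap.

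Glucose-loaded embryos with ZGW serum were compared with glucose-loaded embryos alone to see how the serum group differed. All 10 members had a fitted log2 fold change below 0, where 49.9% of all genes did and 50.1% were above 0. The median over members was -1.12, against 0.00 over all genes tested. In 7 members, Fbxw13, Fbxw14, Fbxw15, Fbxw18, Fbxw20, Fbxw24 and Fbxw28, every ZGW serum library lay below every high glucose library, as it did in 8.26% of all genes. No member had every serum library higher, as 9.08% of genes did. edgeR called none of the members, and 0% of all genes, at an adjusted p under 0.05.

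Fbxw15 had the lowest p-value of the members. It was at 145, 102 and 132 CPM with ZGW serum, against the 259 to 337 CPM seen under high glucose alone, so that the highest serum library was well under the lowest library without serum. The high glucose mean was 2.32 times the ZGW serum mean. Its log2 fold change was -1.21 ± 0.26, with an edgeR adjusted p of 0.370. DESeq2 called Fbxw15 lower, with a log2 fold change of -1.22 ± 0.28 and an adjusted p of 0.00382.

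Fbxw28 was at 723, 341 and 530.4 CPM with ZGW serum, in each library below the 1144 CPM of the lowest high glucose library. Its log2 fold change was -1.18 ± 0.29, with an edgeR adjusted p of 0.370 and a DESeq2 adjusted p of 0.0280, the only other member that DESeq2 called. Fbxw14 was at 745, 371 and 555 CPM with ZGW serum and had a log2 fold change of -1.06 ± 0.30. Fbxw24 was at 558, 264 and 476 CPM with ZGW serum and had a log2 fold change of -1.19 ± 0.34. Adjusted p-values were 0.447 by edgeR for both, and 0.0795 for Fbxw14 and 0.0749 for Fbxw24 by DESeq2. In these 3 genes of highest level, ZGW serum replicate 1 was the highest and replicate 2 the lowest of the serum libraries. Replicate 2 was also the deepest library of the study, at 16916343 counts. The part of depth in these values was not tested.

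Fbxw20 was at 98.0, 27.5 and 72.9 CPM with ZGW serum. The fitted difference of Fbxw20 was -1.27 ± 0.47 on the log2 scale, with an adjusted p of 0.515 by edgeR. Fbxw13, the member of lowest level, was at 15.3, 12.7 and 5.16 CPM with ZGW serum. The log2 fold change of Fbxw13 was -1.74 ± 0.66, the largest of the members, with an edgeR adjusted p of 0.528. Fbxw18 was at 123, 115 and 92.7 CPM with ZGW serum and at 173, 168 and 131 CPM under high glucose. Its groups did not overlap, but the difference was small, with a log2 fold change of -0.51 ± 0.25 and an adjusted p of 0.593.

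Fbxw16, Fbxw19 and Fbxw22 overlapped between these groups. Fbxw22 was at 188, 101 and 172 CPM with ZGW serum, and only replicate 2 lay clearly under the 162 to 192 CPM of the high glucose libraries. Its log2 fold change was -0.25 ± 0.27, or -0.01 without ZGW serum replicate 2. Fbxw19 had a log2 fold change of -0.24 ± 0.32 and Fbxw16 one of -0.51 ± 0.40. The median over the 10 members was -0.87 without ZGW serum replicate 2, the smallest size in the 9 fits that left out 1 library, and 10 of 10 members stayed below 0 in each of those fits.

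Unadjusted, 6 members, Fbxw13, Fbxw14, Fbxw15, Fbxw20, Fbxw24 and Fbxw28, had an edgeR p under 0.05 with lower levels, where 4.89% of all genes did. On the higher side there were 0 members and 3.8% of genes. The count of lower members was 5 or 6 in every fit that left out 1 library. In those fits between 5.79% and 9.01% of all genes had such a p in either direction. Over all genes edgeR called 0, with 1473 at an unadjusted p under 0.05, limma-voom called 0, and DESeq2 called 241, of which 155 were lower. That is 0.914% of genes lower, with 2 of the 10 members among them, and 0.507% higher. This comparison and the one with control share the high glucose libraries, so the 2 sets of differences are not independent.

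**Figure D4:**
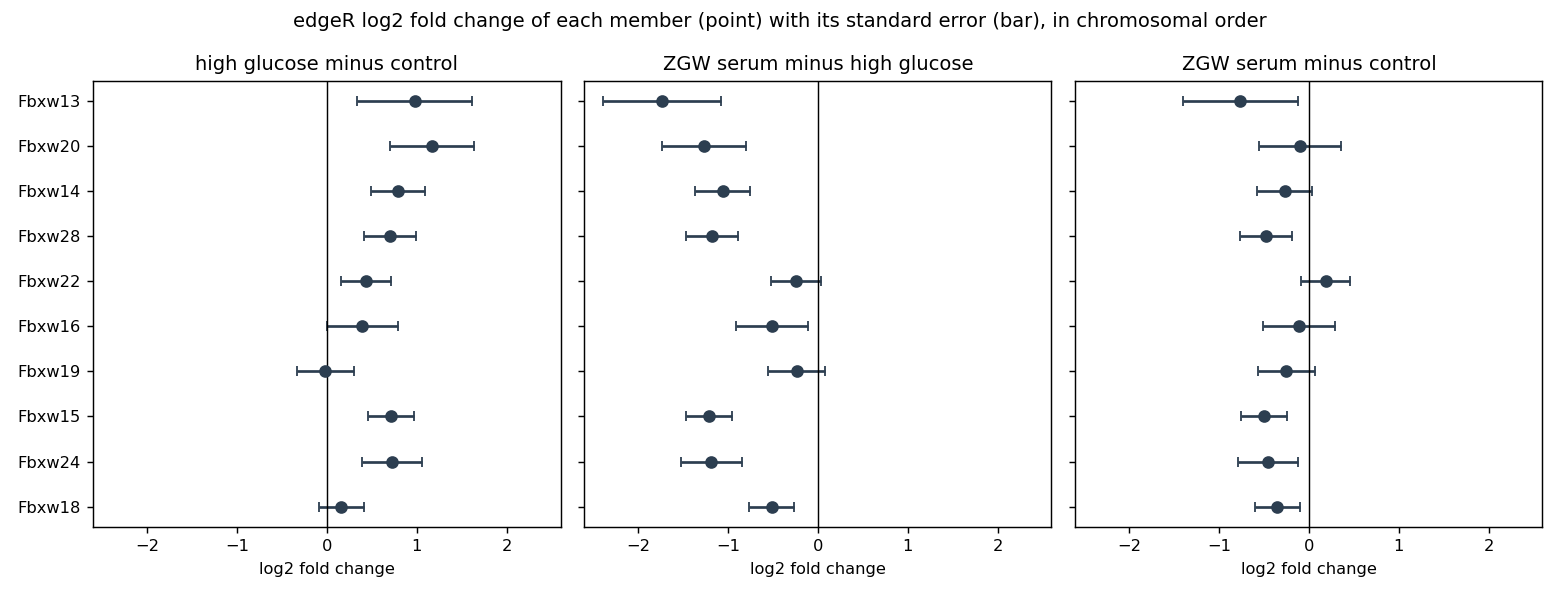
edgeR log2 fold change of each member (horizontal axis) with its standard error as a bar, in 3 comparisons, genes in chromosomal order. Points for high glucose minus control reach 1.17, all points for ZGW serum minus high glucose lie below 0, and those for ZGW serum minus control lie between -0.76 and 0.19.

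The serum group was also set against controls, to see where the serum group stood relative to control embryos. Members were near the control level or somewhat under it, with 9 of 10 fitted log2 fold changes below 0, where 50% of all genes were, and a median of -0.31 against 0.00 over all genes. The highest was Fbxw22 with 0.19 ± 0.27 and the lowest Fbxw13 with -0.76 ± 0.64. Fbxw15 was the member whose groups did not overlap, with all serum libraries lower, an arrangement found in 7.3% of all genes, while 0 members and 9.02% of genes had all serum libraries higher. Its means were 179.3 ± 36.6 CPM in control and 126.7 ± 21.9 CPM with ZGW serum (SD, n = 3), and its log2 fold change was -0.50 ± 0.26, with an edgeR adjusted p of 0.547. None of the members had an unadjusted p under 0.05 in this comparison, against 4.21% of genes on the higher and 5.65% on the lower side. Without control replicate 3 the median was -0.08 and 6 of 10 members were below 0. Across the genome edgeR called 0% of genes and found 1673 below 0.05 before adjustment, limma-voom called 1 and DESeq2 called 348, none of them a member, as 0.584% of genes higher and 1.47% lower.

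The members differed in how closely they moved with one another across the 9 libraries. The measure was the SD over libraries of the log2 ratio of a pair, where a low value means a constant ratio. Its median over 45 pairs was 0.48. The lowest was 0.14 for Fbxw14 and Fbxw28, whose ratio stayed between 0.819 and 1.09. Fbxw15 and Fbxw28, which have coding sequences only 81.2% identical, followed at 0.16, and Fbxw14 and Fbxw24, 79.7% identical, at 0.17. Of the 3 pairs of most constant ratio, 1 was also the pair of most similar sequence. Fbxw13 and Fbxw19 had the highest value, at 1.09. Set against the mean of the other 9 members, Fbxw14, Fbxw28 and Fbxw15 lay closest, at 0.17, 0.17 and 0.19, and Fbxw13 farthest, at 0.92. Counts were lowest for Fbxw13, which had 58 counts in its lowest library.

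The 3 other Fbxw genes of the cluster in the count table had the directions seen in most members. All 3 were higher under high glucose than in control, and lower with ZGW serum than with high glucose alone. In these comparisons 0 of them had an unadjusted edgeR p under 0.05. Fbxw21 was at 45.9 ± 36.9 CPM in control, 78.4 ± 21.1 CPM under high glucose and 48.4 ± 15.6 CPM with ZGW serum (SD, n = 3). Fbxw27 was at 177.1 ± 45.3, 202.4 ± 39.6 and 151.0 ± 49.4 CPM in the same order, and Fbxw26 at 62.7 ± 9.27, 75.0 ± 20.2 and 69.3 ± 38.4 CPM. In both comparisons with the high glucose group, all 3 genes overlapped between groups. Their log2 fold changes ran from 0.19 to 0.77 for high glucose against control and from -0.70 to -0.12 for ZGW serum against high glucose. Whether they differ from the members was not tested.

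Genes within 200 kb of the cluster that are not Fbxw genes had other values. Of the 15 in the count table, all were tested. Many were at low levels, such as Col7a1 at 2.37 ± 2.57 CPM and Camp at 0.96 ± 0.30 CPM in control. Against control, 10 were lower under high glucose, with a median log2 fold change of -0.41. There, 0 had an unadjusted edgeR p under 0.05 and 0 had groups without overlap. With ZGW serum against high glucose, 11 were higher, with a median of 0.60. On that side 1 had an unadjusted p under 0.05, where 3.8% of all genes did, and 3 did not overlap, against 9.08% of genes. Tma7, a small protein linked to translation, was at 336.0 ± 87.0 CPM in control, 232.6 ± 69.5 CPM under high glucose and 425.1 ± 60.8 CPM with ZGW serum (SD, n = 3). Plxnb1, a semaphorin receptor, was at 3.48 ± 2.38 CPM in control.

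Fbxw genes elsewhere in the genome, listed with Btrc, encode substrate receptors with known targets in many tissues, and 9 of 10 were tested. Under high glucose 4 were higher and 5 lower than in control, and with ZGW serum 2 were higher and 7 lower than with high glucose alone, with a median log2 fold change of -0.53. Fbxw5 stood opposite to the members, at 10.4, 19.5 and 4.82 CPM in control, at 4.24, 3.08 and 3.59 CPM under high glucose and at 12.9, 14.0 and 24.8 CPM with ZGW serum. Its log2 fold change was 2.24 ± 0.65 for ZGW serum against high glucose, with an edgeR adjusted p of 0.447. Fbxw7, the receptor for cyclin E, was at 23.4 ± 20.3 CPM in control, 20.5 ± 6.74 CPM under high glucose and 9.25 ± 1.52 CPM with ZGW serum. Btrc, the receptor for beta-catenin, was at 5.63 ± 4.92, 16.1 ± 2.94 and 9.58 ± 5.81 CPM in the same order. Fbxw4 was at 354.0 ± 106.7, 331.3 ± 37.9 and 229.9 ± 64.1 CPM.

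The partners that F-box proteins need were taken from a list of SCF core subunits and of the neddylation genes that switch cullins on and off. Of 32 tested, 19 were higher under high glucose than in control, with a median log2 fold change of 0.14. In that direction 1 had an unadjusted edgeR p under 0.05, where 3.88% of all genes did. With ZGW serum against high glucose 25 were lower, with a median of -0.49. Of these, 8 had an unadjusted p under 0.05 by edgeR, where 4.89% of all genes did. On the higher side 2 others did, against 3.8% of genes. Cops4 and Cops2, subunits of the COP9 signalosome that removes Nedd8 from cullins, were among the 4 of lowest p-value, with log2 fold changes of -1.23 ± 0.28 and -1.64 ± 0.42. Ube2f, a Nedd8-conjugating enzyme, was at 53.0 ± 28.1 CPM under high glucose and 15.8 ± 1.49 CPM with ZGW serum (SD, n = 3). Rbx1 went the other way, at 302, 488 and 552 CPM under high glucose and 729, 696 and 2306 CPM with ZGW serum, of which replicate 3 was far above the rest. None of these genes passed edgeR's test over all genes.

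Of 7525 other genes whose mean over the libraries was 10 CPM or more, the one whose level followed the members' mean most closely was Uba3, the catalytic subunit of the enzyme that activates Nedd8. The SD over 9 libraries of its log2 difference from the members' mean was 0.13, where the median gene had 0.78. Uba3 was at 123, 94.3 and 150.4 CPM in control, at 158, 189 and 187 CPM under high glucose and at 117, 83.8 and 99.7 CPM with ZGW serum. Like the summed members, Uba3 was higher in every high glucose library than in any other library. That is no separate result, since Uba3 was picked for following the members over these same libraries. Arid5b followed at 0.18, then Eef1a1, Senp6 and Rdx, each at 0.21. Fbxw27, the closest of the other cluster genes, was in place 243 at 0.39.

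Lists of stored oocyte transcripts and of transient 2-cell genes were read beside the members. Of 42 oocyte transcripts tested, 26 were higher under high glucose than in control, with a median log2 fold change of 0.16. With ZGW serum against high glucose 27 were lower, with a median of -0.28. Gdf9, an oocyte growth factor, had a log2 fold change of -0.74 ± 0.31 in that comparison, while Oosp1, an oocyte-secreted protein, had one of 0.89 ± 0.21. The 4 oocyte transcripts of lowest p-value there, Omt2a, Omt2b, Oosp1 and Lhx8, were all higher with ZGW serum. With an unadjusted edgeR p under 0.05, 5 were higher, against 3.8% of all genes, and 6 were lower, against 4.89% of genes. Omt2a, far more abundant than any member, had a log2 fold change of 1.08 ± 0.23. Its means were 27830 ± 1998 CPM in control, 19483 ± 4261 CPM under high glucose and 41052 ± 5897 CPM with ZGW serum (SD, n = 3). Stored transcripts therefore stood on both sides. Transient 2-cell genes were lower in 36 of 39 with ZGW serum against high glucose, with a median of -0.72. Of these, 16 had an unadjusted edgeR p under 0.05, where 4.89% of all genes did, and 18 did not overlap, against 8.26% of genes. Against control, 32 of 39 were higher under high glucose, with a median of 0.30. Of those, 1 had an unadjusted p under 0.05, where 3.88% of all genes did. With ZGW serum against control 28 of 39 were lower, with a median of -0.67. Of those, 12 had an unadjusted p under 0.05, where 5.65% of all genes did. These lists are described by their counts, and no difference between them and the members was tested.

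**Figure D5:**
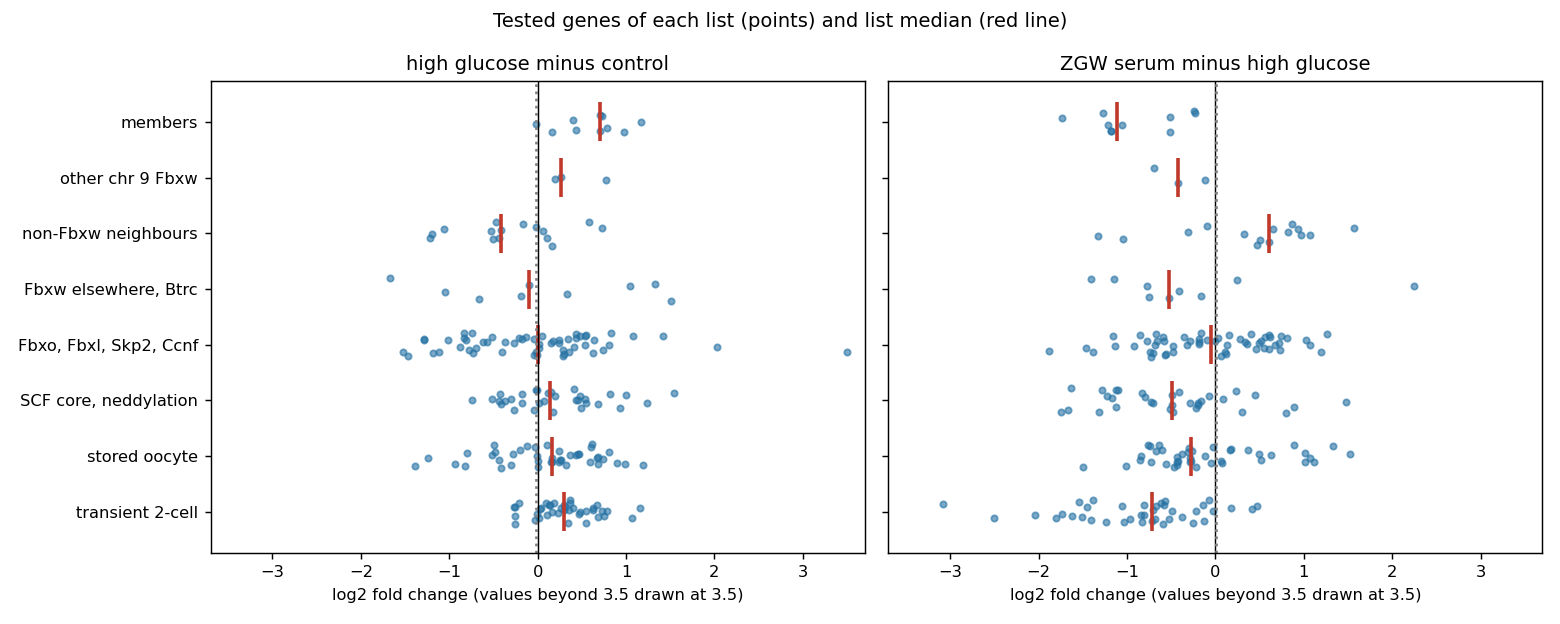
edgeR log2 fold change (horizontal axis, 1 value beyond the axis drawn at its end) of every tested gene of 8 lists, with the list median as a red line, for high glucose minus control and for ZGW serum minus high glucose. The medians of the members are 0.71 and -1.12, and those of the non-Fbxw neighbours are -0.41 and 0.60.

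Library totals ran from 11934924 to 16916343 counts. Control replicate 1 and ZGW serum replicate 3 had the lowest median correlation with the other libraries, at 0.808 and 0.809, where the rest were at 0.823 or above. Without these 2 libraries, 7 members did not overlap and were higher under high glucose than in control, against 11.7% of genes, 7 were lower with ZGW serum than with high glucose alone, against 13.6% of genes, and the median log2 fold changes were 0.56 and -1.09. An unadjusted edgeR p under 0.05 was then found for 1 and 5 members, and in either direction for 7.1% and 7.9% of all genes. All 10 oocyte markers were present, summing to between 4908 and 9726 CPM in a library. Of 16 cumulus and granulosa markers 6 were tested, with sums of 30.8 to 54.2 CPM in control, 20.9 to 27.5 CPM under high glucose and 20.6 to 28.6 CPM with ZGW serum, and Fst and Ptx3 at 0 counts in control and Fshr at 0 with ZGW serum. Of 8 blood markers 4 were tested, with sums of 239.7 to 368.8, 104.5 to 318.8 and 321.7 to 527.9 CPM in the same order. Most of each sum came from Hba-a1 and Hba-a2, whose identical counts enter it 2 times. The beta-globin genes Hbb-bs and Hbb-bt had only 0 to 4 counts in a library, and Ptprc had 0 in the first 2 groups. Of 10 sperm markers 8 were tested, with sums of 14.1 to 25.9, 12.1 to 19.1 and 19.2 to 44.6 CPM, and Smcp at 0 with ZGW serum. The part of other cell types in the members' values was not tested.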

How the data were processed

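The deposited table holds raw counts by gene symbol as the authors made them, with no normalisation. Per the submitters' processing notes, Trim Galore and mm10 were used. The aligner, counter, annotation, strand setting and treatment of reads matching several places were not given in the sources used here. Groups and replicate numbers came from the labels. The members and the gene lists were chosen with earlier results of these data known.

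Counts were tested with edgeR 4.0.16 (R 4.3.3): TMM factors, the edgeR filter at a minimum count of 10, robust quasi-likelihood fits of all 9 libraries with 1 mean per group, and Benjamini-Hochberg adjustment over 16964 genes at 0.05. The standard error of a log2 fold change was its size divided by the square root of the F statistic. The common biological coefficient of variation was 0.731. The script was tested on simulated data. Alternatives were RLE factors, DESeq2 1.42.0, limma-voom (limma 3.58.1), other filters, fits of 2 groups, the replicate number as a block and leaving out libraries. Named genes were all members, up to 4 genes of lowest p-value per list and comparison, and the 5 genes closest to the members' mean log2 CPM (prior count 2). Positions and transcripts came from GENCODE M21, promoters from RefSeq.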

Additional observations from a re-analysis of the deposited data

How the results depend on the processing

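With DESeq2, 129 genes were called for high glucose against control, 241 for ZGW serum against high glucose, 2 of them members, and 348 for ZGW serum against control, where edgeR called 0 in each. In the last comparison limma-voom, no filter and the stricter filter each called 1 gene. Leaving out 1 library, the members' median log2 fold change ran from 0.56 to 0.86 for high glucose against control, from -1.33 to -0.87 for ZGW serum against high glucose and from -0.53 to -0.08 for ZGW serum against control; without control replicate 1 and ZGW serum replicate 3, chosen after seeing the data, the first was 0.56. Of the members' fold changes under the alternatives, 11 turned their sign, 2 passed the threshold (the DESeq2 calls) and 497 did neither. For high glucose against control, Fbxw19 was at 0.020 with limma-voom and 0.012 with the replicate block, and leaving out libraries it ran from -0.23 (control replicate 1 and ZGW serum replicate 3 together) to 0.30 (control replicate 3), with 0.05 without high glucose replicate 3. For ZGW serum against control, Fbxw16 was at 0.010 with limma-voom and ran from -0.51 without ZGW serum replicate 1 to 0.24 without control replicate 3, with 0.14 without ZGW serum replicate 3. There Fbxw19 ran from -0.50 without ZGW serum replicate 1 to 0.065 without control replicate 3, and Fbxw20 from -0.50 without ZGW serum replicate 1 to 0.24 without ZGW serum replicate 2, with 0.21 without control replicate 3. Fbxw13 ran from -1.21 without control replicate 2 to 0.15 without the 2 libraries together. The cause was not tested. For pairing, each library's log2 CPM was taken as deviations from its group mean. Correlations of these deviations between same-numbered libraries ran from -0.01 to 0.10, 1 of 9 pairs over 0.1. Between libraries of different number they ran from -0.095 to 0.046, 0 of 18 over 0.1. Only 2 of 9 libraries were closest to both of their own number, so the numbers were not taken as pairs. With the replicate block edgeR called 0 genes in each comparison, and the members' medians were 0.73, -1.16 and -0.32. The summed CPM kept within its SD under RLE factors and plain totals. Leaving out 1 of the 3 libraries of a group cannot move its mean by its SD, so those fits do not test the sum.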

Other observations

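Other F-box genes gave no common direction. Of 56 Fbxo and Fbxl genes tested together with Skp2 and Ccnf, 28 were higher and 28 lower under high glucose than in control, and 27 were higher and 29 lower with ZGW serum than with high glucose alone, with median log2 fold changes of 0.00 and -0.05. Fbxo5, which restrains the anaphase-promoting complex, was at 316, 246 and 205 CPM under high glucose and at 110.4, 89.1 and 94.9 CPM with ZGW serum. Every serum library of Fbxo5 was lower, and its log2 fold change was -1.38 ± 0.28, with an edgeR adjusted p of 0.370. Fbxl6 was at 116.5 ± 12.7 CPM in control, 67.9 ± 25.7 CPM under high glucose and 114.0 ± 29.2 CPM with ZGW serum (SD, n = 3), with its lowest mean under high glucose.

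Skp1a, the adaptor that holds the F-box, was at 1287 ± 212.9 CPM in control, 1269 ± 510.3 CPM under high glucose and 728.1 ± 137.6 CPM with ZGW serum (SD, n = 3). Its log2 fold change was -0.80 ± 0.30 for ZGW serum against high glucose, with an edgeR adjusted p of 0.526, and -0.02 ± 0.30 for high glucose against control. Nlrp4f and Oas1d, oocyte genes, had their highest mean under high glucose. Nlrp4f was at 384.5 ± 97.1, 763.0 ± 242.0 and 422.7 ± 178.9 CPM in control, under high glucose and with ZGW serum, and Oas1d at 177.3 ± 26.9, 331.6 ± 93.5 and 184.6 ± 65.7 CPM (SD, n = 3). For both genes, the edgeR test over all genes was not passed in any comparison.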
